A study of Mus musculus with 12 samples.

Results

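The mouse Fc gamma receptors and the proteins that carry their signal were followed through LPS stimulation in inflammatory peritoneal cells. The group held 9 genes, chosen by name with earlier results of these data known. They were the activating receptors Fcgr1, Fcgr3 and Fcgr4, the inhibitory receptor Fcgr2b, the adaptors Fcer1g and Tyrobp, and the kinases Syk, Lyn and Fgr. All 9 were among the 12850 genes listed in the deposited table and all 9 were among the 11885 genes tested. RNA-seq had been performed on thioglycollate-elicited peritoneal exudate cells (PECs) of C57BL/6 mice, either wild type (WT) or homozygous for Zc3h12a S513A, an alanine substitution knocked in by CRISPR/Cas9. Zc3h12a encodes Regnase-1, an RNase that degrades mRNAs of inflammatory genes, and the series asks how losing this phosphorylation site changes the response to LPS. Cells of each genotype were stimulated with 100 ng/ml LPS for 0, 4 or 8 hr, with 2 libraries per group and 12 libraries in all. The knock-in was present in every cell of the animal, WT and mutant cells alike came from mice injected with 2 ml of 4% thioglycollate 3.5 days earlier, and the number of animals behind each library is not given in the sources used here. The p-values therefore measure the spread between these libraries, which may be technical.

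Fc gamma receptors bind the constant part of IgG and let macrophages take up opsonised particles and respond to immune complexes. Fcgr1, Fcgr3 and Fcgr4 have no signalling motif of their own and rely on the common gamma chain encoded by Fcer1g, whose activation motif (ITAM) is phosphorylated by Src family kinases such as Lyn and Fgr and then recruits Syk. Fcgr2b carries an inhibitory motif (ITIM) that recruits phosphatases, and Tyrobp (DAP12) is the ITAM adaptor of several other myeloid receptors.

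In brief, the receptors did not move together. Fcgr3 fell within 4 hr and stayed low, Fcgr2b rose within 4 hr and stayed high, and Fcgr1 and Fcgr4 rose between 4 and 8 hr. Averaged over both genotypes, the adaptors moved apart by 8 hr, Fcer1g upward and Tyrobp downward. On the values as deposited, Tyrobp was not called at 8 hr in WT cells, nor Fcer1g in S513A/S513A cells. Syk and Lyn were already higher at 4 hr. No member was called between S513A/S513A and WT cells after adjustment.

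Of these genes, 4 lie near each other on chromosome 1 (GRCm38, GENCODE M21, which is the mm10 build of the files). Fcgr2b spans chr1:170958617-170976547 on the minus strand, Fcgr4 chr1:171018920-171029761 on the plus strand, Fcgr3 chr1:171051174-171064935 on the minus strand and Fcer1g chr1:171229572-171234365 on the minus strand. Fcgr2b and Fcgr4 are 42372 bases apart, Fcgr4 and Fcgr3 are 21412 bases apart, and the whole stretch from Fcgr2b to Fcer1g covers 275749 bases. Within it, 3 of the 4 genes were higher at 8 hr than at 0 hr, where 24.5% of all tested genes were higher. Fcgr3 was lower, where 21.6% were. Whether the position of the genes bears on these changes was not tested. Fcgr1 lies apart on chromosome 3, Tyrobp on 7, Syk on 13, and Lyn and Fgr on 4.

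RefSeq promoters were held for 7 of the 9 members, and none was held for Tyrobp or Lyn. The 150 bases before the annotated start are shown for the 3 activating receptors and for the adaptor they share, Fcer1g. Of these receptors Fcgr1 and Fcgr4 both rose late, whereas Fcgr3 fell. Capitals mark 3 motifs searched on both strands in the 250 bases before each start. These were the GAS element TTCNNNGAA, the letters GAAANNGAA, which is part of the interferon-stimulated response element, and GAGGAA, the core that Ets factors such as PU.1 bind. The build is GRCm38.p6, and GENCODE annotates the last 6 bases of the Fcgr4 window and the last 16 of the Fcer1g window as exonic. The Fcgr3 window holds no annotated exonic base but lies inside the GENCODE span of that gene given above.
Fcgr1 (chr3:96293970-96294119, minus strand): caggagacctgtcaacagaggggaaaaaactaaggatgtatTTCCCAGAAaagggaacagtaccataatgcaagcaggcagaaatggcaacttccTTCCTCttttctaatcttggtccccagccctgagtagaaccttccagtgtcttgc
Fcgr4 (chr1:171018776-171018925, plus strand): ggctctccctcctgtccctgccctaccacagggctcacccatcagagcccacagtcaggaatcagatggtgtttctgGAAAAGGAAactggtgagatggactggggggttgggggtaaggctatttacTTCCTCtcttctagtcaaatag
Fcgr3 (chr1:171059404-171059553, minus strand): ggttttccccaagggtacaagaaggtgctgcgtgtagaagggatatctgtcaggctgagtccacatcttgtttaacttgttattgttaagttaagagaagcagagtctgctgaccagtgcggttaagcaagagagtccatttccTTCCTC
Fcer1g (chr1:171234350-171234499, minus strand): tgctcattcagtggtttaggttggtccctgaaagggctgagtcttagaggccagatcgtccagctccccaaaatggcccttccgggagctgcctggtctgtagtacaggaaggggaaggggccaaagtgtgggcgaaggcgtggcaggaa

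The Fcgr1 promoter held 1 GAS match, 101 to 109 bases before the start. A GAS match was present in 7.02% of the 32841 promoters in the table. Fcgr4 held 1 GAAANNGAA match, 65 to 73 bases before the start, against 7.13% of all promoters. The GAGGAA core, found in 23.3% of all promoters, occurred in all 3 activating receptors, in each case on the opposite strand as TTCCTC, 50 to 55 bases before the start of Fcgr1, 17 to 22 before that of Fcgr4 and 1 to 6 before that of Fcgr3. For the second annotated start of Fcgr3 the match, 10 to 15 bases before it, is the same stretch of genome. The core was also held by 1 of the 2 Syk promoters, and the promoters of Fcgr2b, Fcer1g and Fgr held none of the 3 motifs. These matches describe letters in a window and were not tested as binding sites.

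The libraries held 9525979 to 12439960 reads on the listed genes, with a median of 11137241, so the members rested on 110 reads (Fcgr4 in a WT 4 hr library) to 18895 reads (Syk in a WT 4 hr library). Levels are given as log2 CPM as deposited, the log2 of reads scaled to the size of the library. All 8 macrophage markers were listed, with a summed level of 16710 to 27890 CPM, and none of the 6 NK cell markers was listed. The 3 listed of 10 neutrophil markers summed to 103 to 122 CPM at 0 hr, 139 to 183 at 4 hr and 162 to 215 at 8 hr. Of these, Csf3r was at 67.9 to 128 CPM over all libraries, S100a8 at 20.2 to 106 and Camp at 0.0348 to 3.48. Ly6g, S100a9, Mpo, Elane, Retnlg, Cxcr2 and Ngp were not listed, and the part of neutrophils in the results below was not tested. The 2 listed of 6 eosinophil markers summed to 15.2 to 18.4 CPM at 0 hr, 7.90 to 9.94 at 4 hr and 3.54 to 4.48 at 8 hr. The ranges of this sum did not overlap between times. The sum is in effect Siglecf, at 2.98 to 18.3 CPM over all libraries, since Ccr3 was at 0.0581 to 0.781 CPM on 0 to 8 reads. The 5 listed of 7 B cell markers summed to 9.90 to 15.9, 18.9 to 21.9 and 14.3 to 25.7 CPM, and the 5 listed of 6 markers of resident macrophages to 49.1 to 90.0, 82.2 to 214 and 122 to 146 CPM. Prg4, 1 of these 5 resident markers, was alone at 33 to 182 CPM over all libraries. The median log2 difference of the 5 was -0.305 at 4 hr and -0.0448 at 8 hr, with genes called in both directions at each time. The part of these 3 cell types in the results was not tested either. Listed markers of mast cells summed to 1.58 to 3.64 CPM over all libraries. For T cells, 1 of 6 markers was listed, Cd4, at 0.0954 to 1.09 CPM. Zc3h12a itself was at 4.99 to 5.39 log2 CPM at 0 hr, 7.87 to 8.11 at 4 hr and 6.80 to 7.11 at 8 hr, and gene-level values cannot show the codon that was changed. Libraries of 1 group differed in how much short transcripts counted against long ones. The median log2 CPM of genes with under 1000 exonic bases minus that of genes with at least 4000, a short-minus-long value, ran from -0.87 in S513A/S513A 8 hr replicate 1 to 0.64 in S513A/S513A 4 hr replicate 2. WT 0 hr replicate 1 at -0.72 and WT 4 hr replicate 2 at -0.53 were the other low libraries.

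Fcgr3, the low-affinity activating receptor, had the highest level per exonic kilobase of the 4 receptors before LPS, and it fell. The WT libraries were at 8.96 and 8.99 log2 CPM at 0 hr, at 8.00 and 7.30 at 4 hr, and at 8.01 and 8.09 at 8 hr. In S513A/S513A libraries the values were 9.20 and 9.26, then 7.47 and 7.93, then 7.33 and 7.78. All 4 libraries at 0 hr lay above all 8 stimulated ones. The log2 difference, averaged over the genotypes, was -1.42 at 4 hr (95% CI -1.78 to -1.07, limma adjusted p = 2.13e-05) and -1.30 at 8 hr (-1.65 to -0.95, adjusted p = 5.86e-05), which left 0.373 and 0.407 of the starting level. In bulk RNA, fewer cells of a type and less RNA per cell cannot be told apart.

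Fcgr1, the high-affinity receptor for IgG2a, rose late. WT libraries were at 6.01 and 5.85 log2 CPM at 0 hr, 5.76 and 5.31 at 4 hr, then 6.91 and 7.25 at 8 hr. S513A/S513A libraries were at 5.87 and 5.61, then 5.60 and 5.91, then 6.63 and 7.04. The 8 hr libraries stood above all others. Those of 0 and 4 hr overlapped over the genotypes together, but in WT cells both 4 hr libraries lay below both of 0 hr. The WT difference at 4 hr was -0.39 (limma adjusted p = 0.145), and under quantile normalization it was -0.56 and passed (adjusted p = 0.0368). From 4 to 8 hr Fcgr1 rose 2.49-fold, a log2 difference of 1.31 (95% CI 1.00 to 1.63, limma adjusted p = 0.000107). Against 0 hr the 4 hr value was -0.19 (-0.50 to 0.12, adjusted p = 0.282) and the 8 hr value 1.13 (0.81 to 1.44, adjusted p = 7.02e-05).

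Fcgr4, which binds IgG2a and IgG2b and needs Fcer1g at the surface, had the lowest level per exonic kilobase of the 9 genes in every library, and it rose late. It was at 3.57 and 3.99 log2 CPM in WT and 4.09 and 3.90 in S513A/S513A cells at 0 hr. At 4 hr the WT libraries were at 3.80 and 3.34 and the mutant ones at 3.77 and 4.35, and at 8 hr they were at 4.91 and 5.11 and at 4.25 and 4.93. All 8 hr libraries were above those of 0 hr, but the lowest 8 hr library, S513A/S513A replicate 1, was below the highest 4 hr library. The 8 hr rise was 1.88-fold against 0 hr (log2 difference 0.91, 95% CI 0.50 to 1.33, limma adjusted p = 0.00227) and 1.98-fold against 4 hr (log2 difference 0.98, 0.57 to 1.40, adjusted p = 0.00341), with -0.07 at 4 hr (-0.49 to 0.35, adjusted p = 0.779).

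Fcgr2b, the inhibitory receptor, rose early and held its level. Its WT libraries were at 7.81 and 7.84 log2 CPM at 0 hr, 9.02 and 8.52 at 4 hr, and 8.84 in both at 8 hr. The S513A/S513A libraries were at 8.04 and 8.15, then 8.74 and 9.02, then 8.54 and 8.79. Unstimulated and stimulated libraries did not overlap. The rise was 1.82-fold at 4 hr (log2 difference 0.86, 95% CI 0.61 to 1.12, limma adjusted p = 8.86e-05) and 1.73-fold at 8 hr (0.79, 0.53 to 1.05, adjusted p = 0.000225).

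**Figure D1:**
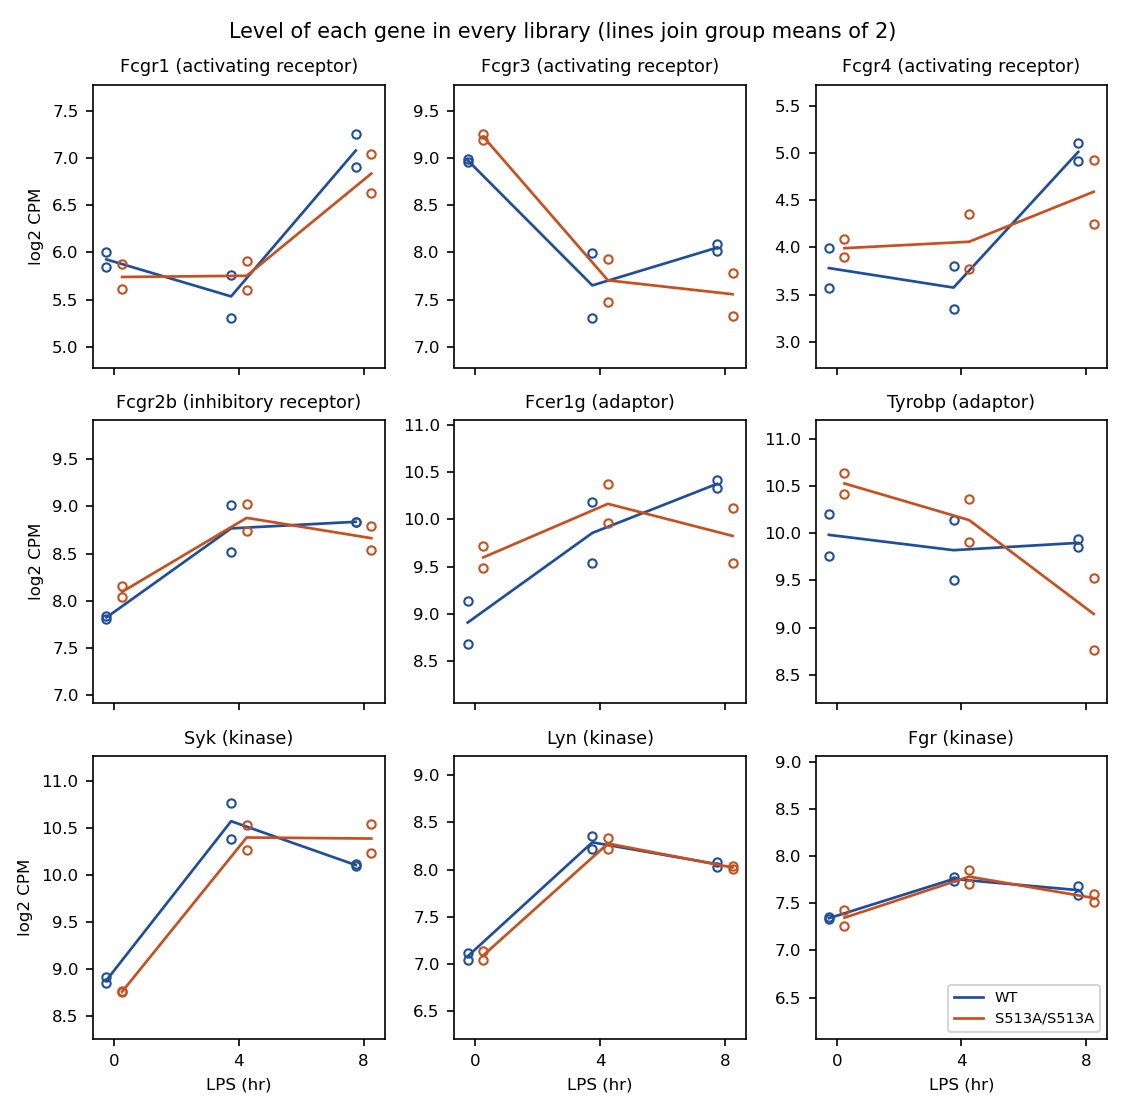
Level of each of the 9 genes in log2 CPM (vertical axes, each spanning the same range) at 0, 4 and 8 hr of LPS (horizontal axes). Points are single libraries, 2 per group, and lines join the group means of WT (blue) and S513A/S513A (orange). Fcgr3 drops from 8.96 to 9.26 at 0 hr to at most 8.09 afterwards, Fcgr1 is at its highest at 8 hr, and replicates of Tyrobp, Fcer1g and Fcgr4 spread more than those of Lyn and Fgr.

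Because Fcgr2b and Fcgr3 have closely related extracellular parts, and because 9.58% of the 50-base windows of Fcgr3 transcripts also occur in Fcgr2b, reads could be shared between them, and their values carry that uncertainty. They changed in opposite directions in the same libraries. The log2 ratio of Fcgr2b to Fcgr3 CPM was -1.16 to -1.11 in the 4 libraries at 0 hr, 1.02 to 1.26 at 4 hr and 0.75 to 1.21 at 8 hr, with means of -1.14 ± 0.025, 1.15 ± 0.11 and 0.95 ± 0.21 (SD, n = 4). No 0 hr library came near the stimulated ones, and both genotypes shared the shift. Per exonic kilobase, Fcgr2b stood at 0.136 of Fcgr3 before LPS, 0.664 at 4 hr and 0.578 at 8 hr, below Fcgr3 at each time. The length used was the union of all annotated exons, 5790 bases for Fcgr2b and 1736 for Fcgr3. A gene expressed from shorter isoforms is understated by it. By CPM, which does not take length into account, Fcgr2b stood above Fcgr3 after LPS, so the order of the pair depends on the exonic lengths used. The ratio of Fcgr1 to Fcgr3 per kilobase went from 0.0696 at 0 hr to 0.164 at 4 hr and 0.373 at 8 hr, and that of Fcgr4 to Fcgr3 from 0.0372 to 0.0952 and 0.172. These ratios are descriptions of the tested changes above and carry no test of their own.

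**Figure D2:**
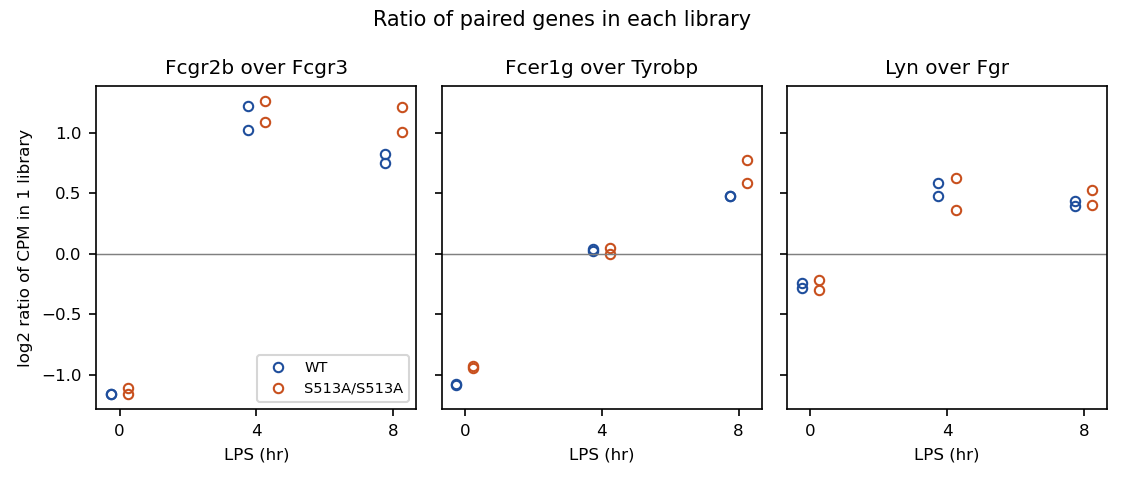
Log2 ratio of CPM of 2 genes within 1 library (vertical axis) at 0, 4 and 8 hr of LPS (horizontal axis) for Fcgr2b over Fcgr3, Fcer1g over Tyrobp and Lyn over Fgr. Each point is 1 library, blue for WT and orange for S513A/S513A, and in all 3 panels the 4 libraries at 0 hr lie below 0 and below every stimulated library.

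Fcer1g, the common gamma chain, rose while Tyrobp, the DAP12 chain, fell. WT libraries held Fcer1g at 8.68 and 9.13 log2 CPM at 0 hr, 10.18 and 9.53 at 4 hr, then 10.33 and 10.42 at 8 hr. The S513A/S513A libraries held it at 9.71 and 9.48, then 9.96 and 10.37, then 9.53 and 10.12. WT replicates were thus higher after LPS in every case, whereas 1 mutant library at 8 hr lay between the mutant libraries of 0 hr. Averaged over the genotypes, Fcer1g was 1.69-fold higher at 4 hr (log2 difference 0.76, 95% CI 0.36 to 1.16, limma adjusted p = 0.00436) and 1.80-fold at 8 hr (0.85, 0.45 to 1.25, adjusted p = 0.00287). Under quantile normalization the 4 hr value was 0.32 and no longer passed (adjusted p = 0.115).

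For Tyrobp the WT libraries were at 9.76 and 10.21 log2 CPM at 0 hr, 10.14 and 9.51 at 4 hr, then 9.86 and 9.94 at 8 hr. The S513A/S513A libraries were at 10.64 and 10.42, then 9.91 and 10.37, then 8.76 and 9.53. The WT values overlapped at all times and the mutant ones descended with time. The mean log2 difference was -0.28 at 4 hr (95% CI -0.71 to 0.16, limma adjusted p = 0.264) and -0.73 at 8 hr (-1.17 to -0.30, adjusted p = 0.0108), or 0.601 of the starting level. Under quantile normalization the 4 hr value was -0.74 and passed (adjusted p = 0.00392). Between 4 and 8 hr Tyrobp was at -0.46 (adjusted p = 0.119), and it passed at -0.62 without WT 4 hr replicate 2 (adjusted p = 0.0407) and at -0.65 without S513A/S513A 8 hr replicate 2 (adjusted p = 0.0271).

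Both adaptors have short transcripts, with 874 exonic bases for Fcer1g and 667 for Tyrobp, and their replicates moved with the short-minus-long value of the library. Across the 6 groups, the difference between replicates correlated with that of the short-minus-long value at r = 0.992 for Tyrobp, 0.984 for Fcer1g, 0.997 for Fcgr4 and -0.941 for Syk, which has 9362 exonic bases (n = 6 pairs of libraries that share the trend by construction, given as a description). It was 0.833 for Fcgr1, 0.895 for Fcgr3, 0.496 for Lyn, -0.495 for Fgr and 0.83 for Fcgr2b, whose 5790 exonic bases make it one of the longer transcripts of the group. Whether RNA quality or library preparation lay behind it was not tested. As an alternative chosen after seeing the data, the trend with exonic length was removed from each library. The SD within groups then went from 0.348 to 0.0426 for Tyrobp, from 0.316 to 0.0585 for Fcer1g, and from 0.324 to 0.111 for Fcgr4. It widened from 0.184 to 0.217 for Fcgr2b and from 0.0754 to 0.084 for Fgr, and narrowed for the other members.

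On that scale the adaptors separated by time in both genotypes. Fcer1g was at 9.16 to 9.39 log2 CPM in the 4 libraries of 0 hr, 9.86 to 9.97 at 4 hr and 10.15 to 10.27 at 8 hr. Tyrobp was at 10.21 to 10.37, then 9.75 to 9.91, then 9.59 to 9.66. Neither gene's time groups overlapped, and Fcgr1 at 4 hr passed on this scale at -0.25 (limma adjusted p = 0.0474). The log2 differences of Tyrobp were -0.44 at 4 hr (95% CI -0.57 to -0.30, limma adjusted p = 6.43e-05) and -0.64 at 8 hr (-0.77 to -0.50, adjusted p = 3.52e-06), and those of Fcer1g were 0.62 (0.48 to 0.77, adjusted p = 4.82e-06) and 0.90 (0.76 to 1.04, adjusted p = 2.25e-07). Within each library and without any correction, the log2 ratio of Fcer1g to Tyrobp CPM was -1.08 to -0.92 at 0 hr, 0.0027 to 0.046 at 4 hr and 0.48 to 0.77 at 8 hr. Per kilobase, Fcer1g went from 0.380 of Tyrobp at 0 hr to 0.779 at 4 hr and 1.14 times Tyrobp at 8 hr.

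Syk, the kinase that docks on phosphorylated ITAMs, rose most among the 9 genes. Before LPS the WT libraries were at 8.92 and 8.85 log2 CPM and the mutant ones at 8.76 and 8.77. WT cells reached 10.38 and 10.76 at 4 hr and 10.09 and 10.12 at 8 hr, and mutant cells 10.53 and 10.26, then 10.54 and 10.23. Every stimulated library exceeded every unstimulated one by over 1 log2 unit. The rise was 3.16-fold at 4 hr (log2 difference 1.66, 95% CI 1.42 to 1.91, limma adjusted p = 3.42e-07) and 2.68-fold at 8 hr (1.42, 1.18 to 1.67, adjusted p = 1.51e-06). Between 4 and 8 hr it was at -0.24 (adjusted p = 0.146), and at -0.33 without WT 4 hr replicate 1 (adjusted p = 0.0345).

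Lyn, a Src family kinase that phosphorylates both ITAMs and ITIMs, showed the tightest replicates. In WT cells it went from 7.12 and 7.05 log2 CPM to 8.36 and 8.22 and then 8.03 and 8.08. In S513A/S513A cells it went from 7.05 and 7.13 to 8.22 and 8.33 and then 8.00 and 8.04. The 3 time points did not overlap. Lyn rose 2.29-fold at 4 hr (log2 difference 1.20, 95% CI 1.04 to 1.35, limma adjusted p = 1.2e-07) and 1.94-fold at 8 hr (0.95, 0.80 to 1.11, adjusted p = 9.09e-07). Between 4 and 8 hr it fell by 0.24 on the log2 scale (adjusted p = 0.0267), a call that was lost when S513A/S513A 4 hr replicate 2 or any one of the 4 libraries of 8 hr was left out (adjusted p of 0.0537 to 0.098). The Lyn call from 4 to 8 hr was also lost under quantile normalization and with 1 weight per group. Of the 50-base windows of Lyn, 13.4% also occur in the pseudogene Gm11787, and 248 exonic bases overlap Gm26857 on the other strand. The strand setting of the counting is not stated, so reads from such overlaps, and from the 155 bases that Fcgr2b shares with the antisense gene Gm38204, cannot be told apart.

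Fgr, a myeloid Src family kinase, had the smallest called differences from 0 hr. WT libraries were at 7.36 and 7.33 log2 CPM at 0 hr, 7.78 and 7.74 at 4 hr, then 7.59 and 7.69 at 8 hr. The mutant libraries were at 7.26 and 7.43, then 7.86 and 7.71, then 7.60 and 7.52. No stimulated library reached down to the 0 hr range. The log2 difference was 0.43 at 4 hr (95% CI 0.26 to 0.59, limma adjusted p = 0.000501) and 0.25 at 8 hr (0.092 to 0.41, adjusted p = 0.0149), but under quantile normalization these became 0.055 (adjusted p = 0.582) and -0.020 (adjusted p = 0.86). The 8 hr call was also lost without WT 0 hr replicate 2, S513A/S513A 0 hr replicate 1, WT 8 hr replicate 2 or S513A/S513A 8 hr replicate 1, with adjusted p of 0.0503 to 0.0718. The log2 ratio of Lyn to Fgr CPM in a library was -0.30 to -0.22 at 0 hr, 0.36 to 0.63 at 4 hr and 0.40 to 0.52 at 8 hr.

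Counted over the genotypes together, 5 of 9 members were higher at 4 hr than at 0 hr (Fcgr2b, Fcer1g, Syk, Lyn and Fgr), where 29.1% of all tested genes were higher, and 1 (Fcgr3) was lower, where 26.7% were. With the length trend removed 3 members were lower at 4 hr, against 30.3% of all genes, since Fcgr1 at -0.25 (limma adjusted p = 0.0474) and Tyrobp at -0.44 (adjusted p = 6.43e-05) also passed. With the short-minus-long value as a term 4 were lower, against 31.8%, Fcgr4 at -0.30 (adjusted p = 0.00827) being the fourth. At 8 hr 7 members were higher, including Fgr, which was at -0.020 under quantile normalization, against 24.5% of all genes, and 2 (Fcgr3 and Tyrobp) were lower, against 21.6%. The counts of higher members stood above the share of all genes, while 2 of 9 lower members at 8 hr is near it. Since the members were chosen with earlier results of these data known, these counts are a description and were not tested. These comparisons share their 0 hr libraries. From 4 to 8 hr 2 members were higher (Fcgr1 and Fcgr4) and 1 (Lyn) was lower, with 12.8% of all genes higher and 12.8% lower. The median log2 difference over the 9 members was 0.43 at 4 hr and 0.85 at 8 hr, beside medians over all tested genes of 0.017 and -0.00070.

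Within genotypes, 6 members were called at 4 hr in WT cells (41.3% of all genes) and 5 in S513A/S513A cells (43.2%), where Fcer1g was at 0.57 (95% CI 0.00032 to 1.14, limma adjusted p = 0.0986). At 8 hr 8 members were called in WT cells (34.3% of all genes), all except Tyrobp, and 6 in mutant cells (39.9%). In mutant cells Fcgr4 was at 0.60 (adjusted p = 0.0981), Fcer1g at 0.23 (adjusted p = 0.51) and Fgr at 0.21 (adjusted p = 0.131), while Tyrobp fell by 1.38 (adjusted p = 0.00285). With the length trend removed 8 members were called at 8 hr in each genotype (40.6% of all genes in WT and 45% in mutant cells). In WT cells Tyrobp then passed at -0.68 (adjusted p = 6.74e-05) and Fgr did not, and in mutant cells Fcgr4 passed at 1.02 (adjusted p = 5.64e-05) and Fcer1g at 0.86 (adjusted p = 1.32e-05). At 4 hr the same correction gave 9 called members in WT cells (48.4% of all genes) and 7 in mutant cells (49.7%). In WT cells Fcgr1 then passed at -0.456 (limma adjusted p = 0.018), and in mutant cells it was at -0.0344 (adjusted p = 0.859). With the short-minus-long value as a term Fcgr1 was at -0.562 in WT cells (adjusted p = 0.00141) and -0.0958 in mutant cells (adjusted p = 0.519). Some of the calls on the values as deposited rested on 1 library. In WT cells Fcer1g was lost at 4 hr without WT 0 hr replicate 1 or WT 4 hr replicate 1, and Fgr without WT 0 hr replicate 2, while Fcgr1 passed at -0.62 (adjusted p = 0.0447) without WT 4 hr replicate 1. At 8 hr Fcgr3 was lost in WT cells without WT 0 hr replicate 2 or WT 8 hr replicate 1, and Fgr, at 0.30 (adjusted p = 0.0451), was lost without any one of the 8 libraries of 0 and 8 hr. In mutant cells Fgr was lost at 4 hr without S513A/S513A 0 hr replicate 1 or 4 hr replicate 1. At 8 hr Fcgr2b was lost there without S513A/S513A 0 hr replicate 1 or 2 or 8 hr replicate 2, and Fcgr4 passed at 0.94 (adjusted p = 0.03) without 8 hr replicate 1.

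From 4 to 8 hr 2 members were called in WT cells (Fcgr1 and Fcgr4, with 14.2% of all genes) and 2 in mutant cells (Fcgr1 and Tyrobp, with 18.3%). The WT count was 1 without WT 8 hr replicate 2 and 5 without WT 4 hr replicate 1. In mutant cells Tyrobp fell by 1.00 from 4 to 8 hr (adjusted p = 0.0341), a call lost without S513A/S513A 0 hr replicate 1 or 2, 4 hr replicate 2 or 8 hr replicate 1, or without WT 8 hr replicate 1 or 2. With the length trend removed this mutant Tyrobp call was also lost, while Fcgr4 and Fcer1g passed. The 3 members then called in mutant cells were all higher (25.6% of all genes were called). With the short-minus-long value as a term Tyrobp kept its call and Fcgr4 was gained, giving 3 called members (14.8% of all genes).

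**Figure D3:**
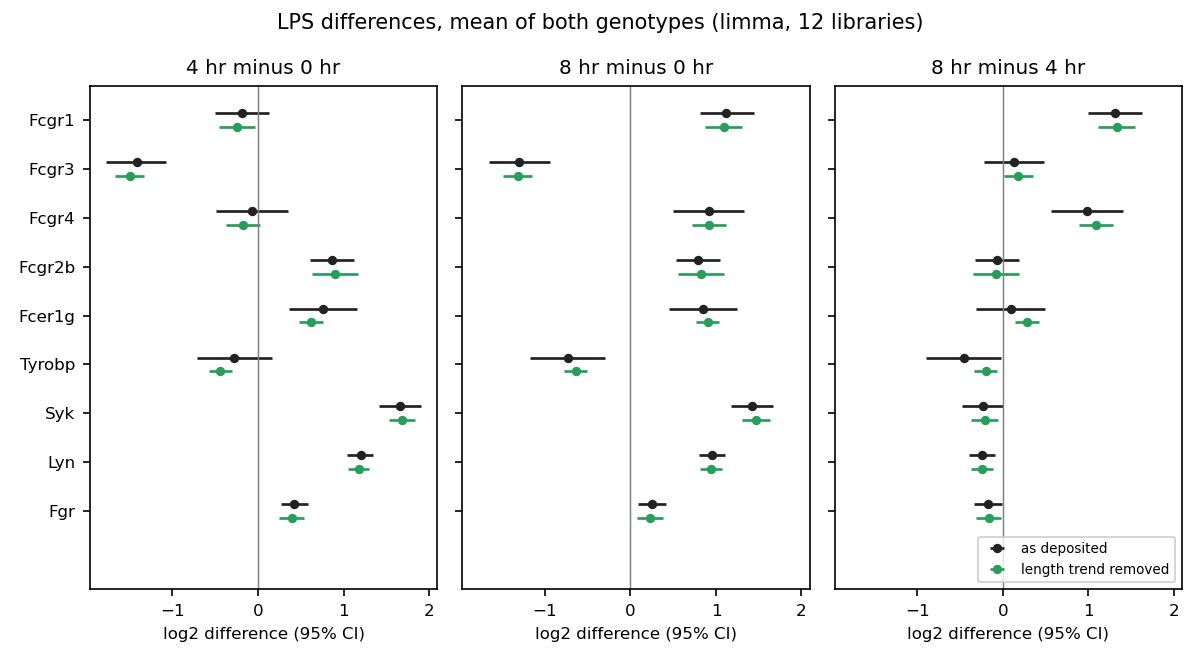
Log2 difference between time points for each of the 9 genes, averaged over both genotypes, with 95% confidence intervals (horizontal axis). Black points are from the values as deposited and green points from values with the length trend of each library removed. Syk, Lyn and Fcgr2b lie to the right of 0 and Fcgr3 to the left at both 4 and 8 hr, and the green intervals of Tyrobp and Fcer1g are narrower than the black ones.

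Per exonic kilobase the adaptors exceeded every receptor and kinase in all 12 libraries. At 0 hr Tyrobp averaged 10.84 on the log2 CPM per kilobase scale, Fcer1g 9.45 and Fcgr3 8.31, followed by Syk at 5.60, Fcgr2b at 5.43, Fgr at 5.40, Lyn at 5.06, Fcgr1 at 4.46 and Fcgr4 at 3.56. Neighbours from Syk through Fgr overlapped in their libraries. At 8 hr the order was Fcer1g at 10.29, Tyrobp at 10.11, Syk at 7.02, Fcgr3 at 7.01, Fcgr2b at 6.22, Lyn at 6.01, Fgr at 5.65, Fcgr1 at 5.59 and Fcgr4 at 4.47. The ranges of Fcer1g and Tyrobp overlapped there, as did those of Syk and Fcgr3, of Fcgr2b and Lyn, and of Fgr and Fcgr1, but Fcer1g exceeded Tyrobp in each of the 4 libraries. Fcgr4 was last in every library. The length used is the union of all annotated exons, so a gene expressed from shorter isoforms is understated.

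Between genotypes, no member was called at 0 hr, 4 hr, 8 hr or averaged over the 3 times, and few genes were called at all (0.0337%, 0.0168%, 0.0337% and 0.0673% of those tested). At an unadjusted p under 0.05 there was 1 member at 0 hr (Fcer1g), 0 at 4 hr, 1 at 8 hr (Tyrobp) and 0 for the mean, beside 7.98%, 7.01%, 12.5% and 6.71% of all genes, and voom weights gave 0 called members throughout. A count of 0 is close to these shares of all genes and is no result about the members. Averaged over times, the S513A/S513A minus WT log2 differences ran from -0.07 for Fcgr1 (95% CI -0.33 to 0.19) to 0.15 for Fcer1g (-0.18 to 0.48). For the kinases the intervals were narrow, at -0.20 to 0.20 for Syk, -0.14 to 0.11 for Lyn and -0.15 to 0.11 for Fgr.

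The adaptors differed most, and in opposite directions at 0 and 8 hr. At 0 hr Fcer1g was 0.69 higher in mutant cells (95% CI 0.12 to 1.26, limma adjusted p = 0.586) and Tyrobp 0.54 higher (-0.075 to 1.16, adjusted p = 0.586). At 8 hr the differences were -0.55 (-1.12 to 0.016, adjusted p = 0.403) and -0.75 (-1.37 to -0.13, adjusted p = 0.395). The libraries of the genotypes did not overlap for either gene at either time. The short-minus-long values were -0.72 and -0.32 in WT against 0.27 and -0.046 in mutant libraries at 0 hr. At 8 hr they were 0.28 and 0.43 against -0.87 and -0.0090, so they also stood apart by genotype, in the same directions. Genotype and this value varied together at these times, and the part of either in the differences was not tested.

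The difference between genotypes in the LPS response was tested as an interaction, and no gene was called at 4 hr (0% of those tested) or at 8 hr (0%). At an unadjusted p under 0.05 there were 0 members at 4 hr and 3 at 8 hr, beside 1.21% and 20.2% of all genes. The 3 were Fcer1g at -1.24 (95% CI -2.05 to -0.44, limma adjusted p = 0.193), Tyrobp at -1.30 (-2.17 to -0.42, adjusted p = 0.193) and Fcgr3 at -0.74 (-1.45 to -0.039, adjusted p = 0.236). With 1 weight per group these 3 passed (adjusted p of 0.0369, 0.0369 and 0.0487), and without S513A/S513A 8 hr replicate 2, which leaves replicate 1 to stand for its group, Fcer1g and Tyrobp passed at -1.53 (adjusted p = 0.0392) and -1.68 (adjusted p = 0.0315). With the length trend removed the interaction was -0.10 for Fcer1g (-0.38 to 0.18), 0.091 for Tyrobp (-0.18 to 0.36) and -0.17 for Fcgr3 (-0.51 to 0.17), while Fcgr2b was at -0.55 (-1.09 to -0.0066, adjusted p = 0.279). With the short-minus-long value as a term the intervals of Fcgr1 at 0.64 (0.13 to 1.14) and Fcgr4 at 0.50 (0.00088 to 0.999) lay above 0, with adjusted p of 0.999 for both. With the length trend removed, the 8 hr rise of Fcer1g was 0.95 in WT and 0.86 in mutant cells, and Tyrobp was at -0.68 and -0.59. With the term, Fcer1g was at 0.792 in WT and 0.655 in mutant cells, and Tyrobp at -0.84 and -0.908.

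**Figure D4:**
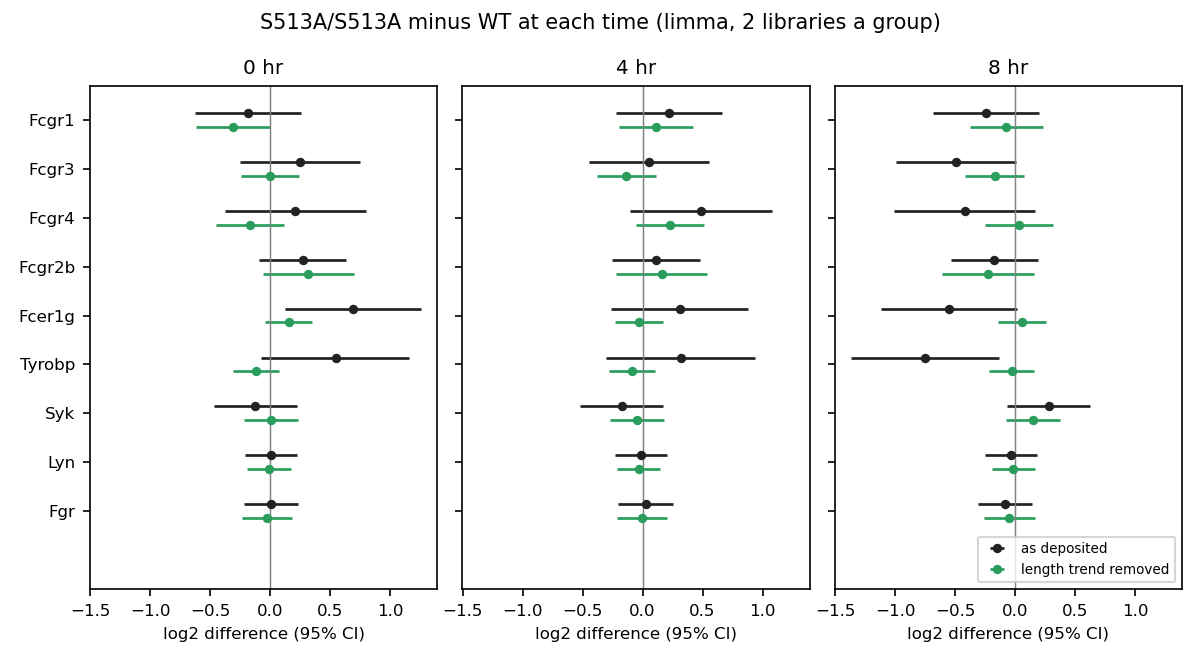
Log2 difference of S513A/S513A minus WT for each of the 9 genes at 0, 4 and 8 hr with 95% confidence intervals (horizontal axis). Black points use the values as deposited and green points the values with the length trend removed. Fcer1g and Tyrobp lie right of 0 at 0 hr and left of it at 8 hr in black, and all green points of these genes lie within 0.2 of 0.

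The rest of the pathway moved in both directions, and each list below was read against the 29.1% of all genes that were higher and the 26.7% that were lower at 4 hr. Among other Fc receptors, 6 of the 7 listed genes were tested, with 2 higher and 2 lower and a median of 0.46. Trim21, the cytosolic IgG receptor, rose by 2.60 on the log2 scale (95% CI 2.39 to 2.81, limma adjusted p = 3.35e-09), while Fcrlb, an intracellular Fc receptor-like protein, rose by 1.29 from 19 to 24 reads at 0 hr to 32 to 53 reads. Fcgrt, the neonatal receptor that recycles IgG, fell by 0.79 at 4 hr (adjusted p = 0.000692) and by 1.08 at 8 hr (adjusted p = 9.88e-05). The other lower gene, Fcrl1, a B cell receptor-like gene named after its value was seen, was at -1.21 (adjusted p = 0.0176) with overlapping libraries.

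Among receptors that signal through Fcer1g or Tyrobp, 7 of 14 tested genes were higher and 5 lower at 4 hr, with a median of 0.22. Clec4e (Mincle), a receptor for glycolipids that uses Fcer1g, went from 9.39 to 10.27 log2 CPM at 0 hr to 11.83 to 12.60 at 4 hr, a difference of 2.46 (limma adjusted p = 2.81e-07). Klrk1 (NKG2D) went from 0 to 1 reads to 14 to 27, and Trem1 from 0 to 3 reads to 19 to 41 and back to 2 to 9 at 8 hr, so the sizes of these changes rest on very few reads. Cd300lb, which pairs with Tyrobp, fell by 1.37 (95% CI -1.54 to -1.20, adjusted p = 9.74e-08). Sirpb1a fell from 24 to 42 reads at 0 hr to 3 to 11 at 4 hr and 0 to 2 at 8 hr, and Sirpb1b by 0.97 at 4 hr, but these 2 genes are close paralogs and their reads may not be separable.

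Of 12 tested Src family kinases and regulators, 6 were higher and 2 lower, with a median of 0.29. Src rose by 3.69 (95% CI 3.41 to 3.96, limma adjusted p = 1.75e-09) and the phosphatase Ptprj, which can activate these kinases, by 2.24 (1.97 to 2.50, adjusted p = 6.12e-08). Ptpn22, which dephosphorylates Src and Syk family kinases, fell by 2.27 (adjusted p = 1.77e-07), from 242 to 277 reads to 31 to 51. The other lower gene, Cblb, a ubiquitin ligase named after its value was seen, was at -0.61 (adjusted p = 0.01) with overlapping libraries.

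Among the inhibitory phosphatases and their partners, on which Fcgr2b signalling depends, 5 of 11 were higher and 3 lower, with a median of 0.10. Inpp5d, the SHIP1 lipid phosphatase that Fcgr2b recruits, fell by 1.44 at 4 hr (95% CI -1.73 to -1.15, limma adjusted p = 4e-06), while Fcgr2b rose, and at 8 hr it was at -0.24 (adjusted p = 0.165). The protein phosphatase genes Ptpn6 (SHP-1) and Ptpn11 (SHP-2) rose by 0.75 and 0.89 (adjusted p of 1.37e-05 and 1.08e-06). Lilrb4a, an ITIM receptor with a close paralog, rose by 0.86, and Cd300a, another ITIM receptor, fell by 2.37 (adjusted p = 1.32e-09). Dok2, an adaptor that dampens kinase signalling, fell by 0.59 at 4 hr and was at 0.076 at 8 hr (adjusted p = 0.509).

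Below Syk, 12 of 30 genes were higher and 7 lower at 4 hr, with a median of 0.12. Malt1, which carries signal from CARD proteins to NF-κB, rose by 2.87 (95% CI 2.66 to 3.08, limma adjusted p = 1.59e-09), the adaptor Lcp2 (SLP-76) by 2.39 (adjusted p = 1.56e-09) and Pik3cg by 1.21 (adjusted p = 4.05e-07). The kinase Tec fell by 2.27 (adjusted p = 1.59e-09) and the exchange factor Vav2 by 0.94 (adjusted p = 1.43e-05). The adaptor Lat2 fell from 8.54 to 8.80 log2 CPM at 0 hr to 6.96 to 7.21 at 4 hr (adjusted p = 2e-07). Card9, whose libraries overlapped between times, was at -0.30 (adjusted p = 0.0116).

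In the list for phagocytosis and the NADPH oxidase, 9 of 20 genes were higher and 5 lower at 4 hr, with a median of 0.26. Rac2, the GTPase of the oxidase, rose by 1.06 (95% CI 0.89 to 1.23, limma adjusted p = 5.87e-07), and the oxidase subunits Cybb and Ncf1 rose by 0.86 and 0.67 (adjusted p of 2.82e-05 and 2.68e-05). Of the 5 lower genes, Myo1e fell by 0.89 (adjusted p = 0.000692), Dock2 by 0.80 (adjusted p = 8.3e-05) and Wipf1 by 0.66 (adjusted p = 0.00428).

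**Figure D5:**
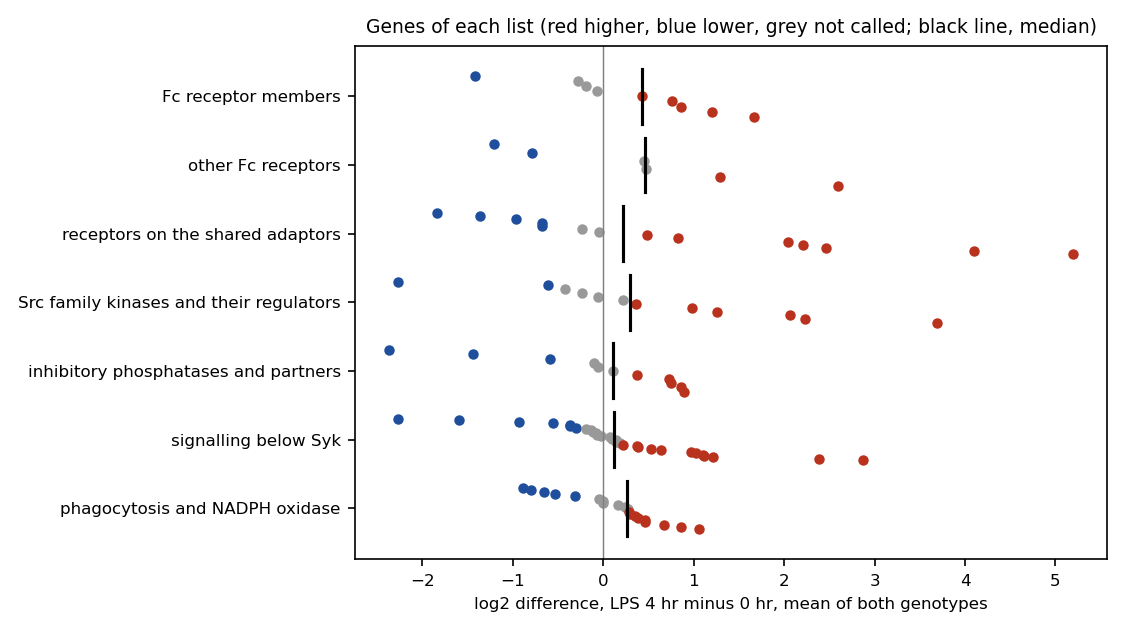
Log2 difference at 4 hr of LPS against 0 hr, averaged over both genotypes (horizontal axis), for each tested gene of the Fc receptor members and of 6 further lists (rows). Red points were higher and blue points lower at a limma adjusted p under 0.05, grey points were not called, and black lines are medians. Every list holds genes on both sides of 0, and the medians lie between 0.10 and 0.46.

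No gene of the 6 lists was called between genotypes averaged over the 3 times. The gene of each list with the smallest p was Fcrla at -1.30 on 2 to 14 reads (limma adjusted p = 0.418), Clec4e at 0.32 (adjusted p = 0.704), Yes1 at -0.93 on 2 to 16 reads (adjusted p = 0.704), Dok2 at -0.23 (adjusted p = 0.559), Card9 at -0.17 (adjusted p = 0.711) and Myo1e at -0.28 (adjusted p = 0.757).

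Over the 12 libraries, each receptor was compared with all tested genes by the correlation of log2 CPM, which here reflects group means and library trends together. Nearest to Fcgr1 were Htra2 (r = 0.986), A530064D06Rik (0.959) and BC017643 (0.952). Nearest to Fcgr2b were Cav2 (0.987), Psmd7 (0.985) and Dnajb6 (0.985). Fcgr3 was most like Sptssa (0.991), Smyd3 (0.985) and the chemokine receptor gene Ccr1 (0.985), and Fcgr4 most like Akr1b8 (0.951), Smim3 (0.943) and 3830406C13Rik (0.941).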

How the data were processed

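The deposited table holds log2 CPM per gene and library on 1 scale. Per the labels and the study's methods, the authors ran HISAT2 on paired-end reads against mm10, unstranded, and counted with featureCounts 1.6.3. The annotation, the strand setting of the counting, the gene filter and the program that made the log2 values are not given in the sources used here. The values were those of whole reads plus 0.5 over a scaled library size, and reads were recovered from them to within 0.00103 of a whole number. Of 12850 genes, 112 matched no current symbol.

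The 11885 genes that reached 1 CPM in 2 or more libraries were fitted in limma 3.58.1 (R 4.3.3) with 6 group means and an empirical Bayes prior with trend, leaving 6 residual degrees of freedom. P-values were Benjamini-Hochberg adjusted over all tested genes, with a threshold of 0.05. Exonic lengths came from GENCODE M21, for 92.9% of genes. Depth limited Fcgr4 most. In the added length correction, a natural spline with 5 degrees of freedom was removed from each library. Other scalings, filters, pseudocounts, priors, weights and a replicate block were tried in 9 alternative fits, 2 fits that handle transcript length were added after seeing the data, and each of the 12 libraries was left out in turn.

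Members and lists were chosen with earlier results of these data known. Named genes were the 9 members, from each of 6 lists the 3 higher and 3 lower at 4 hr with the largest change, an adjusted p under 0.05 and libraries that did not overlap, the gene of each list with the smallest p between genotypes, and the 3 genes most like each receptor. Of the genes this rule named, 1 is not reported here.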

Additional observations from a re-analysis of the deposited data

How the results depend on the processing

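Of 396 values of the members' log2 differences under the 11 alternatives, 371 kept their direction and side of the threshold, 7 changed sign, 14 gained and 4 lost a call. Of 432 values without 1 library, these counts were 392, 28, 3 and 9. Averaged over genotypes, the calls of Fcgr3, Fcgr2b, Syk and Lyn at 4 and 8 hr, and of Fcgr1, Fcgr4, Fcer1g and Tyrobp at 8 hr, held under the 9 alternatives, the 2 added ones and the 12 fits that left out a library. The labels do not say whether same-numbered libraries share a mouse, and the numbers were not used as pairs, since correlations of replicate differences ran from -0.749 to 0.76, and -0.358 to 0.76 between times of 1 genotype. With the replicate block 9 members were called at 8 hr against 0 hr, as without it, and 7 rather than 8 in WT cells, where Fgr was lost.

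From 4 to 8 hr, 3 members were called, where 25.6% of all genes were, 6 with the length trend removed (32.4% of all genes) and 8 with the short-minus-long value as a term (38.9%; 4 in WT cells, where 2 were called). At 4 hr against 0 hr these fits called 8 and 9 members in place of 6 (62.4% and 64.8% of all genes in place of 55.8%). From 4 to 8 hr in mutant cells, quantile normalization and a prior without trend each gave 1 called member in place of 2. The 8 hr interaction went from 0 to 3 with 1 weight per group. Leaving out libraries gave 6 to 6 members at 4 hr (WT 5 to 6, mutant 4 to 5), 8 to 9 at 8 hr (WT 6 to 8, mutant 5 to 7), 2 to 4 from 4 to 8 hr (WT 1 to 5, mutant 1 to 2), 0 to 2 for the 8 hr interaction and 0 to 0 for the other genotype comparisons.

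Sign changes all lay among differences that were not called, except Fgr at 8 hr (-0.0196 under quantile normalization). From 4 to 8 hr Fcgr2b was at 0.0379 under quantile normalization. Leaving out single libraries gave -0.198 to 0.0523 for Fcgr2b, -0.0476 to 0.301 for Fcgr3 and -0.0718 to 0.252 for Fcer1g from 4 to 8 hr, and -0.215 to 0.0758 for Fcgr4 at 4 hr. Between genotypes over the 3 times, Tyrobp was at -0.0384 under quantile normalization, -0.0778 with the length trend removed and -0.062 with the term, and Syk at 0.0367 and 0.0393 with the latter 2. Leaving out single libraries there gave -0.145 to 0.0046 for Fcgr1, -0.0138 to 0.153 for Fcgr2b, -0.179 to 0.053 for Fcgr3, -0.0215 to 0.205 for Fcgr4, -0.0917 to 0.165 for Tyrobp, -0.0688 to 0.0596 for Syk, -0.0367 to 0.0106 for Lyn and -0.0456 to 0.01 for Fgr. The cause of these changes was not tested.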
